A study of Homo sapiens with 12 samples.

Results

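ERBB receptors, the 2 genes that flank ERBB2 on chromosome 17 and are often amplified with it, and the ligands of the EGF family were followed across 3 gastric cancer cell lines and across cells sorted for the surface marker CD133. The set was fixed by name, with earlier results of these data known, and holds 10 of the 34595 genes with a value. They are the receptors EGFR, ERBB2 and ERBB3, the neighbors GRB7 and STARD3, and the ligands AREG, EREG, TGFA, HBEGF and BTC. All 10 have a row in the table. AREG stayed at background on all 12 arrays, so 9 genes could be tested, EREG and BTC among them with some arrays at background.

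KATO-III, SNU-216 and SNU-601 are established human gastric cancer lines, grown here in RPMI1640 with 10% calf serum and given no drug or genetic change. Each culture was stained with a phycoerythrin-labeled antibody to CD133/1 (AC133), the protein made by PROM1, and split by flow cytometry into CD133+ cells (the brightest 10%) and CD133- cells (the dimmest 6%). Total RNA of each of the 6 populations was hybridized to 2 Illumina Human HT-12 v3 arrays, which gives 12 arrays, 4 per line and 6 per fraction. The array labels name SNU-216, while the deposited design text writes SNU201 in its place. Sorting plots among the paper's supplements carry the labels KATO-III, SNU-216 and SNU-601. Their isotype and stained panels name KATO-III, SNU-216 and SNU-638, the last where SNU-601 would stand. Array labels were followed. Whether the 2 arrays of a population came from separate cultures or sorts is not stated, so all p-values below measure the spread between these arrays, which may be technical.

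The values are normalized intensities with background subtracted, on a linear scale, and a value below 32.7 was treated as background (the floor). From 16320 to 16474 genes per array exceeded it, and the 2 arrays of a population correlated at r = 0.993 to 0.995 across genes. PROM1 followed the sort in each line: CD133+ arrays were 2.15-fold above CD133- arrays in KATO-III, 4.05-fold in SNU-216 and 3.62-fold in SNU-601. The fractions are relative to their own line, since KATO-III CD133- cells read 4056 and 4493 for PROM1, close to the 4877 and 4677 of SNU-601 CD133+ cells. All 6 rows of epithelial markers (EPCAM under both of its names, KRT8, KRT18, KRT19, CDH1) lay above the floor on all 12 arrays. Of the markers of other cell types, PTPRC, CD3E, COL3A1, DCN, PECAM1, CDH5 and VWF were at background on every array, and COL1A2 and COL1A1 exceeded the floor on 1 and 7 arrays, COL1A1 with at most 196. COL1A1 read 51.4 and 67.1 in KATO-III CD133+ cells and was at the floor in KATO-III CD133- cells. CD68, a lysosomal protein abundant in macrophages, was detected on all arrays and was lower in the CD133+ cells of all 3 lines, by 1.36, 1.13 and 0.46 on the log2 scale in KATO-III, SNU-216 and SNU-601, and the part of COL1A1 and CD68 in the results below was not tested.

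ERBB receptors are tyrosine kinases of the cell surface that signal as pairs. EGFR binds AREG, EREG, TGFA, HBEGF and BTC, ERBB3 binds neuregulins and has a weak kinase of its own, and ERBB2 has no known ligand and acts as the favored partner of the others. The ligands are made as membrane proteins and released by proteases such as ADAM17. In gastric cancer, amplification of ERBB2 marks a class of tumors treated with antibodies to the receptor, and the amplified stretch usually carries GRB7, an adaptor that binds phosphorylated receptors, and STARD3, a cholesterol-binding protein of endosomes.

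**Figure D1:**
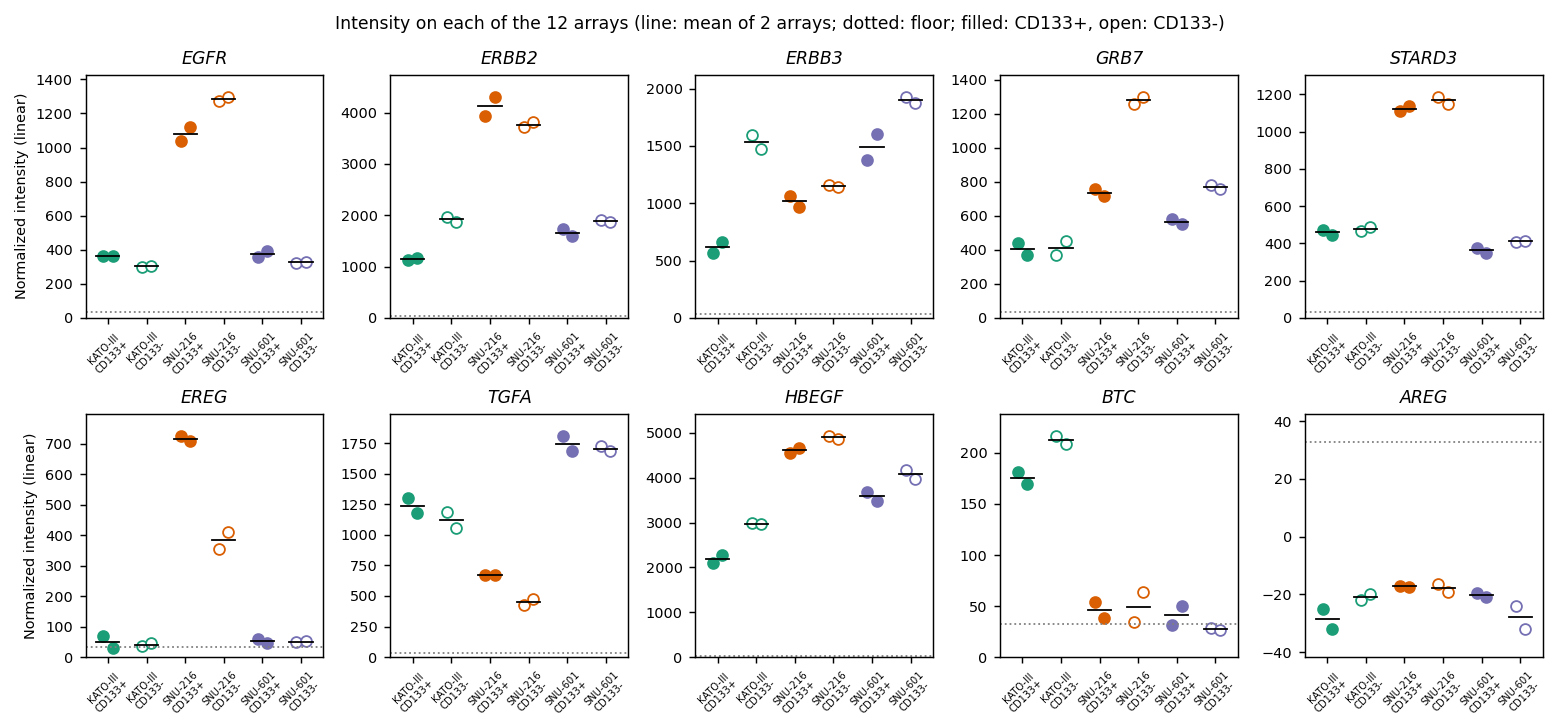
Normalized intensity (linear, 1 panel and scale per gene) of the 10 genes on each of the 12 arrays; filled points are CD133+ and open points CD133- cells, black lines are means of 2 arrays and the dotted line is the floor of 32.7. SNU-216 is highest for EGFR, ERBB2, STARD3, EREG and HBEGF in both fractions, KATO-III is highest for BTC, and AREG lies below the floor on all arrays.

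SNU-216 had the highest EGFR and ERBB2 of the 3 lines in both fractions, while ERBB3 was highest in SNU-601. Against KATO-III, EGFR was 3.56-fold and ERBB2 2.65-fold higher in SNU-216, and against SNU-601 they were 3.37-fold and 2.23-fold higher (limma, averages of both fractions).

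In KATO-III, EGFR read 360.3 and 362 on the CD133+ arrays and 300.5 and 306 on the CD133- arrays. In SNU-216, the CD133+ arrays gave 1040 and 1121 and the CD133- arrays 1273 and 1299. In SNU-601, they gave 359 and 389.6 for CD133+ and 324 and 329.8 for CD133- cells. All 4 SNU-216 arrays lay above all 8 others, by 1.83 ± 0.05 (log2, SE) over KATO-III and 1.75 ± 0.05 over SNU-601 (adjusted p = 7.01e-10 and 9.66e-10). KATO-III and SNU-601 overlapped, with a difference of 0.08 (95% interval -0.02 to 0.18, adjusted p = 0.173). In the order of the 6 populations, the 4 of KATO-III and SNU-601 followed each other without a step that passed the test.

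ERBB2 read 1134 and 1171 in KATO-III CD133+ cells, against 1974 and 1865 in the CD133- cells. SNU-216 read 3933 and 4309 in CD133+ and 3713 and 3821 in CD133- cells. SNU-601 read 1725 and 1593 in CD133+ and 1905 and 1862.5 in CD133- cells. SNU-216 stood apart from both other lines in either fraction, and its own fractions were neighbors in the order without a step that passed (0.13, adjusted p = 0.154). SNU-601 was 0.25 ± 0.04 above KATO-III over both fractions (adjusted p = 0.000675). That difference depended on the fraction: it was 0.52 among CD133+ arrays alone (adjusted p = 0.00354) and -0.03 among CD133- arrays alone (adjusted p = 0.665).

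ERBB3 had another order, with 563 and 665 in KATO-III CD133+ cells and 1593 and 1472 in KATO-III CD133- cells. SNU-216 gave 1067 and 963 in CD133+ and 1158 and 1143 in CD133- cells, and SNU-601 gave 1381 and 1600.0 in CD133+ and 1930 and 1874 in CD133- cells. KATO-III thus held the lowest population and the second highest one. SNU-601 was higher than SNU-216 by a log2 difference of 0.64 (SNU-216 minus SNU-601, -0.64 ± 0.07, adjusted p = 2.59e-05), and higher than KATO-III by 0.80 ± 0.07 (adjusted p = 6.37e-06). Between SNU-216 and KATO-III the average difference was 0.16 (adjusted p = 0.0739), made of opposite values in the fractions: 0.73 among CD133+ arrays (adjusted p = 0.0084) and -0.41 among CD133- arrays (adjusted p = 0.00324). Without the second KATO-III CD133+ array the average passed (0.22, adjusted p = 0.0261), and it passed with arrays centered on their medians (adjusted p = 0.0461) and among genes above the floor on all 12 arrays (adjusted p = 0.0472). ERBB4, the remaining receptor of the family, was at background on all 12 arrays.

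STARD3 and GRB7 were higher in SNU-216 as well. STARD3 read between 1108 and 1187 on the 4 SNU-216 arrays, between 445 and 486 in KATO-III and between 349.9 and 415 in SNU-601, with no overlap between lines. SNU-216 was 2.45-fold above KATO-III and 2.97-fold above SNU-601 (adjusted p = 5.15e-09 and 1.30e-09), and SNU-601 was below KATO-III (-0.28 ± 0.04, adjusted p = 0.000358). In KATO-III, GRB7 read 440.1 and 372 on the CD133+ arrays and 368 and 450.5 on the CD133- arrays. In SNU-216 it read 755 and 717 in CD133+ and 1258 and 1299.6 in CD133- cells, and in SNU-601 it read 579 and 552 in CD133+ and 778 and 756 in CD133- cells. SNU-216 exceeded KATO-III by 2.39-fold and SNU-601 by 1.47-fold on average (adjusted p = 3.66e-07 and 0.000129). The GRB7 fractions crossed the lines, in that SNU-601 CD133- cells lay level with SNU-216 CD133+ cells (0.06, adjusted p = 0.724).

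The stretch around ERBB2 was described with the 20 tested genes on each side of it in chromosomal order, after 14115 of the 20147 tested genes had been placed through RefSeq annotation (GRCh38.p14). Copy number was not measured. TCAP, PNMT and PGAP3 lie between STARD3 and ERBB2, and MIEN1 lies between ERBB2 and GRB7, counting coding genes. For SNU-216 minus KATO-III, the 40 neighbors had a median log2 difference of 0.28, against 0.03 over all tested genes. By the test, 18 were higher and 9 lower, against 31.7% and 30.3% of all tested genes. Of the 40, 4 exceeded the 1.40 of ERBB2. PGAP3, which remodels lipid anchors of surface proteins, was the gene next to ERBB2 and was higher by 2.35 (log2). The other 3, named here after their values were seen, were C17ORF96 (6.26), MLLT6 (2.05) and FBXL20 (1.45), all on the STARD3 side.

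Higher values were not shared by all of the stretch. C17ORF37, the table's name for MIEN1, lies directly between ERBB2 and GRB7 and differed by 0.43 (adjusted p = 0.0716) for SNU-216 minus KATO-III, and by 1.03 for SNU-216 minus SNU-601 (adjusted p = 0.000929). PPP1R1B, a phosphatase inhibitor and the tested gene before STARD3, went the other way: it read 5512 to 6337 on the KATO-III arrays and 50.0 to 124 in SNU-601, and 3 of the 4 SNU-216 arrays were at the floor, the fourth reading 39.0. GSDMB was lower in SNU-216 than in KATO-III and SNU-601 over both fractions (-1.08 and -2.43). Against KATO-III it was lower in CD133- cells only, with 246 and 243 in SNU-216 and 1069 and 1221 in KATO-III. In CD133+ cells it read 341 and 351 in SNU-216 and 325 and 334 in KATO-III. PSMD3, a proteasome subunit, was higher in SNU-216 than in SNU-601 (1.27). For SNU-601 minus KATO-III, PPP1R1B differed by -6.23, PGAP3 by 1.74 and GSDMB by 1.35. Against SNU-601, the 40 neighbors had a median of 0.23, and 10 of the 40 exceeded ERBB2. In that comparison 21 were higher and 8 lower, against 29.4% and 27.1% of all tested genes. The 40 neighbors of EGFR on chromosome 7 had medians of -0.16 for SNU-216 minus KATO-III and 0.12 for SNU-216 minus SNU-601, and 1 of them exceeded EGFR in each comparison.

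**Figure D2:**
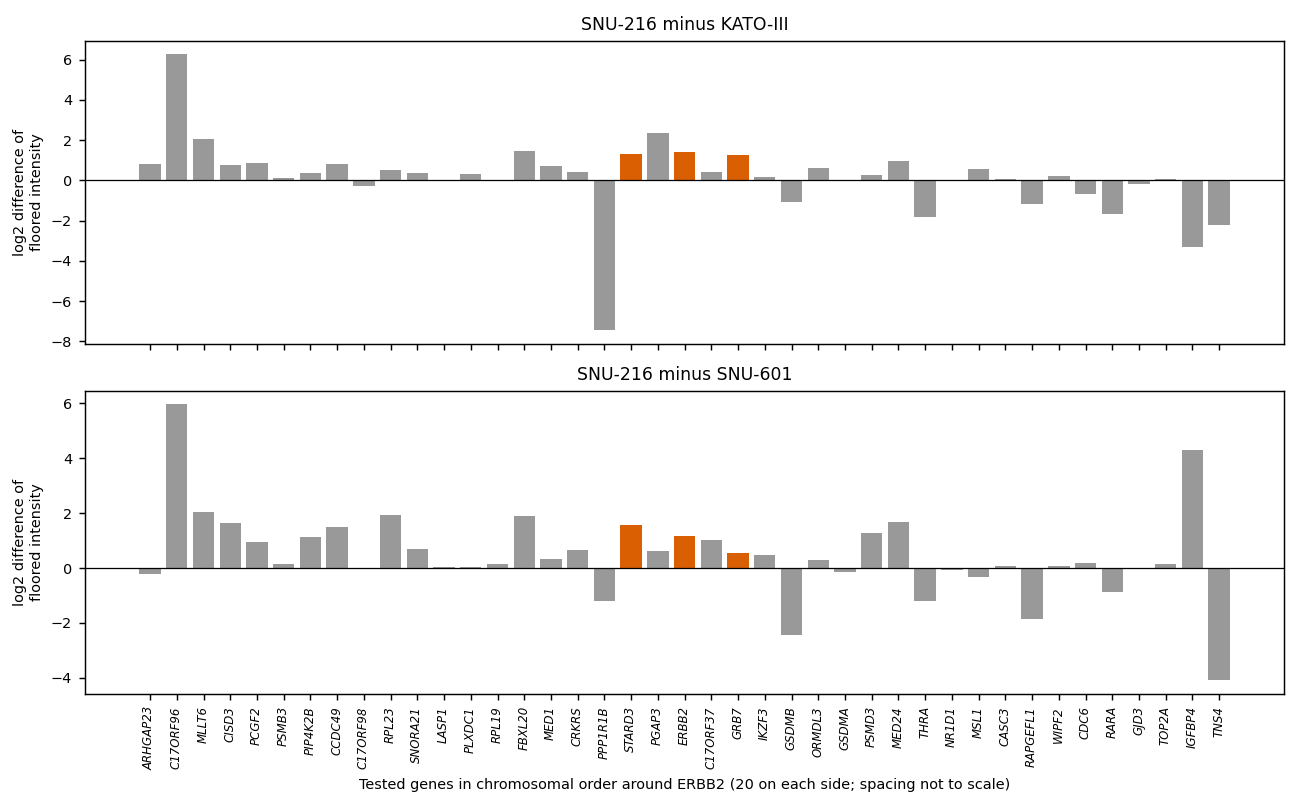
Log2 difference of floored intensity for ERBB2, STARD3 and GRB7 (orange) and the other tested genes in chromosomal order around ERBB2 (gray, spacing not to scale), for SNU-216 minus KATO-III (top) and SNU-216 minus SNU-601 (bottom). All 3 orange bars are above 0 in both panels, between bars that reach 6.26 and -7.43 in the top panel.

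Among the ligands, EREG, AREG and BTC lie next to each other on chromosome 4 with no coding gene between them, and each had its own pattern. EREG was well above the floor in SNU-216 alone, BTC was highest in KATO-III and AREG was at background in all lines. Their promoters, the 250 bases before each RefSeq start (GRCh38.p14), are shown because these 3 adjacent genes differed in this way. Capitals mark TATAAA and the cAMP response element TGACGTCA, both searched on both strands. The windows are chr4:74364895-74365144 on the plus strand for EREG, chr4:74444886-74445135 on the plus strand for AREG and chr4:74794524-74794773 on the minus strand for BTC, each written 5′ to 3′ in the direction of the gene.
EREG: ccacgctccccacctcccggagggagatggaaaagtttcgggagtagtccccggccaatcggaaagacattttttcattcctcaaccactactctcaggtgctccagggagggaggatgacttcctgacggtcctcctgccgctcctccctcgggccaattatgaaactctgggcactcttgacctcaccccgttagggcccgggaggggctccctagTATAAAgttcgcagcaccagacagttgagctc
AREG: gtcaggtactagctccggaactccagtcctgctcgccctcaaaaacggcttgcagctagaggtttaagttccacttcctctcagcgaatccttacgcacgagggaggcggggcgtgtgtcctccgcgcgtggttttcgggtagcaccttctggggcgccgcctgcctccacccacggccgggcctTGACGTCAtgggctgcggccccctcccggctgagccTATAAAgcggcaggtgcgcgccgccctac
BTC: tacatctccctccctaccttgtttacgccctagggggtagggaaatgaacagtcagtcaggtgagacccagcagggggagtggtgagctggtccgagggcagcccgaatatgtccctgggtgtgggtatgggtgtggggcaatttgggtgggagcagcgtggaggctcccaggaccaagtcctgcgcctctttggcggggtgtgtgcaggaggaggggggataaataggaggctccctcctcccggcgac
TATAAA began at base -32 in EREG and -29 in AREG, counted back from the start, and was found in 10.7% of all 35116 windows of this length. TGACGTCA was found only in the AREG window, at base -65, and in 1.65% of all windows. The BTC window held neither of them.

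EREG, epiregulin, read 725 and 708 in SNU-216 CD133+ and 355 and 412 in SNU-216 CD133- cells. In the other lines it stayed near the floor, at 29.5 to 68.7 in KATO-III, where 1 of 4 arrays was below it, and at 45.9 to 59.2 in SNU-601. SNU-216 lay above all arrays of the other lines, 12.0-fold over KATO-III and 10.1-fold over SNU-601 (adjusted p = 3.97e-07 and 6.50e-07). These folds rest on values close to the floor and are limited by it. SNU-601 and KATO-III did not differ beyond their spread (0.24, 95% interval -0.25 to 0.73), although leaving out the first KATO-III CD133+ array moved the difference to 0.51 (adjusted p = 0.0160).

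TGFA, transforming growth factor alpha, was lowest in SNU-216. In KATO-III it read 1299 and 1177 on the CD133+ arrays and 1187.5 and 1056 on the CD133- arrays, and it read 672 and 669 in CD133+ and 424 and 476 in CD133- cells of SNU-216. SNU-601 was highest, at 1808 and 1682 in CD133+ and 1722 and 1685.5 in CD133- cells. No array of SNU-216 overlapped with either line, and SNU-216 was 2.14-fold below KATO-III and 3.14-fold below SNU-601 (adjusted p = 1.38e-07 and 7.46e-09). SNU-601 was 1.47-fold above KATO-III (adjusted p = 2.48e-05).

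HBEGF, which also serves as the receptor of diphtheria toxin, was detected at 2109 and 2275 in KATO-III CD133+ and 2984 and 2975 in KATO-III CD133- cells. It read 4558 and 4671 in CD133+ and 4933 and 4872 in CD133- cells of SNU-216. SNU-601 read 3692 and 3482 in CD133+ and 4181 and 3979 in CD133- cells. The 3 lines did not overlap and each pair passed the test, with SNU-216 1.86-fold above KATO-III and 1.24-fold above SNU-601. BTC, betacellulin, read between 169.6 and 217 on the 4 KATO-III arrays, between 34.6 and 64.0 in SNU-216 and between 27.0 and 50.3 in SNU-601, where 3 of 4 arrays were at the floor. KATO-III was 4.18-fold above SNU-216 and 5.30-fold above the floored values of SNU-601 (adjusted p = 2.15e-05 and 8.47e-06). SNU-216 and SNU-601 differed by 0.34 (adjusted p = 0.222), which passed only without the first SNU-216 CD133- array (0.56, adjusted p = 0.0336).

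AREG, amphiregulin, ranged from -32.1 to -16.5 and gave no level in any population. AREG has a near-identical copy in older annotations, and how its probes were combined is not stated. A bulk array cannot tell fewer cells that make a ligand from less RNA per cell.

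In counts, 8 of the 9 tested genes differed between SNU-216 and KATO-III (6 higher, 2 lower), and 62% of all tested genes did (31.7% higher, 30.3% lower). For SNU-601 minus KATO-III, 7 differed (5 higher, 2 lower), against 58.6% of all tested genes (29.9% higher, 28.7% lower). For SNU-216 minus SNU-601, 8 differed (6 higher, 2 lower), against 56.5% (29.4% higher, 27.1% lower). The median log2 difference of the 9 was 1.26, 0.25 and 0.56, and that of all tested genes was 0.03, 0.02 and 0.01. A further fit averaged the 2 arrays of each population first and took 1 CD133 effect shared by all lines. It counts a CD133 effect that differs between lines as spread. In it 8, 1 and 5 of the calls in these comparisons were left, against 25.4%, 18% and 25.1% of all tested genes. BTC was the call left for SNU-601 minus KATO-III, and ERBB3, GRB7 and HBEGF were those lost for SNU-216 minus SNU-601.

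**Figure D3:**
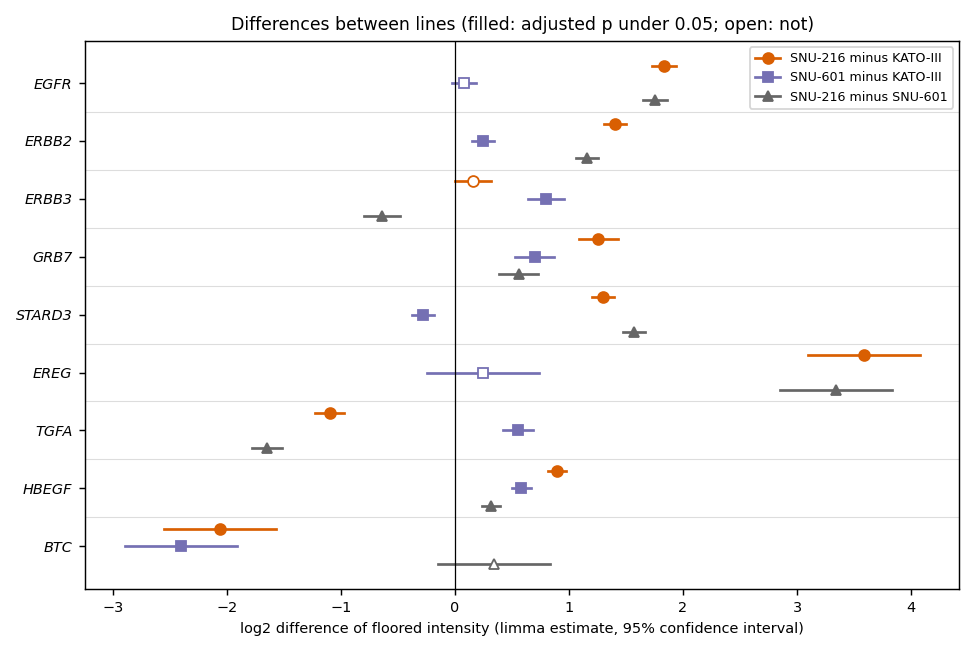
Log2 difference of floored intensity between lines for the 9 tested genes, with 95% confidence intervals of the limma fit; filled symbols have an adjusted p under 0.05 and open symbols do not. The SNU-216 differences of EGFR (1.83 and 1.75), ERBB2 (1.40 and 1.16) and STARD3 (1.29 and 1.57) lie to the right of 0 and those of TGFA (-1.10 and -1.65) to the left.

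Between the CD133 fractions of KATO-III, the receptors ERBB3, ERBB2 and EGFR and the ligand HBEGF passed the test. ERBB3 was 2.50-fold and ERBB2 1.66-fold lower in CD133+ than in CD133- cells, and EGFR was 1.19-fold higher. The 2 CD133+ arrays lay outside the range of the 2 CD133- arrays for each of these genes. The log2 difference was -1.32 ± 0.10 for ERBB3 (adjusted p = 1.33e-05), -0.74 ± 0.06 for ERBB2 (adjusted p = 2.29e-05) and 0.25 ± 0.06 for EGFR (adjusted p = 0.0129). HBEGF was 1.36-fold lower (-0.44 ± 0.05, adjusted p = 0.000142). These 4 calls of 9 (1 higher, 3 lower) compare with 39.3% of all tested genes, 18.7% higher and 20.6% lower. GRB7, STARD3, TGFA, EREG and BTC did not pass, and the GRB7 arrays of the fractions overlapped. EGFR did not pass without the first CD133- array of KATO-III (0.24), and EREG passed without the second CD133+ array, the one at the floor (0.77). BTC passed with a floor of 100 (-0.28, adjusted p = 0.00167). That floor put all BTC values of SNU-216 and SNU-601 at the same level, so these populations added no spread to the fit. Of the 6 rows of epithelial markers, CDH1, the epithelial adhesion gene, was lower in the same CD133+ cells (-0.70), TACSTD1, the older name of EPCAM, was higher (0.11) and 4 did not pass (median of the list -0.02). Their part in these differences was not tested.

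In SNU-216, GRB7, TGFA and EGFR passed the test. GRB7 was 1.74-fold lower in CD133+ cells (-0.80 ± 0.11, adjusted p = 0.000643) and TGFA was 1.49-fold higher (0.58 ± 0.08, adjusted p = 0.000861), with no overlap between the fractions. EGFR, with the direction opposite to that in KATO-III, was 1.19-fold lower (-0.25 ± 0.06, adjusted p = 0.0176). EREG read 717 ± 12.1 in CD133+ and 383 ± 40.3 in CD133- cells (mean ± SD, n = 2). That difference of 0.91 ± 0.31 missed the threshold in the fit over all arrays (adjusted p = 0.0555), whose spread is shared by all lines, the KATO-III CD133+ arrays with 68.7 and 29.5 included. It passed with an offset of 100 in place of the floor (adjusted p = 0.000252), without either CD133+ array of KATO-III, and with a floor of 100 (adjusted p = 2.21e-05). The floor of 100 put all EREG values of KATO-III and SNU-601 at the same level. Those populations then added no spread to the fit, so that p-value cannot be set beside the others. ERBB2 (0.13) and ERBB3 (-0.18) did not pass. The 3 calls (1 higher, 2 lower) compare with 28.6% of all tested genes, 14.6% higher and 14% lower. EGFR was lost without the first CD133+ array (-0.20, adjusted p = 0.0940) or the second CD133- array (-0.24, adjusted p = 0.0728).

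In SNU-601 the differences were small. GRB7 (-0.44 ± 0.11, adjusted p = 0.0232), ERBB3 (-0.36 ± 0.10, adjusted p = 0.0374) and HBEGF (-0.19 ± 0.05, adjusted p = 0.0354) were lower in CD133+ cells, 1.36-fold, 1.28-fold and 1.14-fold. For each of them both CD133+ arrays lay below both CD133- arrays. The 3 calls, all lower, compare with 16.4% of all tested genes, 8.59% higher and 7.78% lower. They stood close to the threshold: of the 12 fits that each left out 1 array, ERBB3 and HBEGF were lost in 9 and GRB7 in 4. GRB7 was lost without any one of the 4 SNU-601 arrays (adjusted p = 0.0719 to 0.111), and no call was left without the first or the second CD133- array of SNU-601. EGFR (0.19, adjusted p = 0.0755), ERBB2 (-0.18, adjusted p = 0.0695) and STARD3 (-0.18, adjusted p = 0.0747) missed the threshold. With arrays centered on their medians, EGFR passed (adjusted p = 0.0421) while ERBB3 and HBEGF were lost (adjusted p = 0.0517 and 0.0693). ERBB3 and HBEGF were also lost with the replicate number as a block (adjusted p = 0.0522 and 0.0512) and without the mean-variance trend (0.0675 and 0.104), and with no filter on dim genes all 3 calls were lost (0.0722 for GRB7, 0.115 for ERBB3 and 0.0632 for HBEGF). TGFA, EREG and BTC were within their spread.

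**Figure D4:**
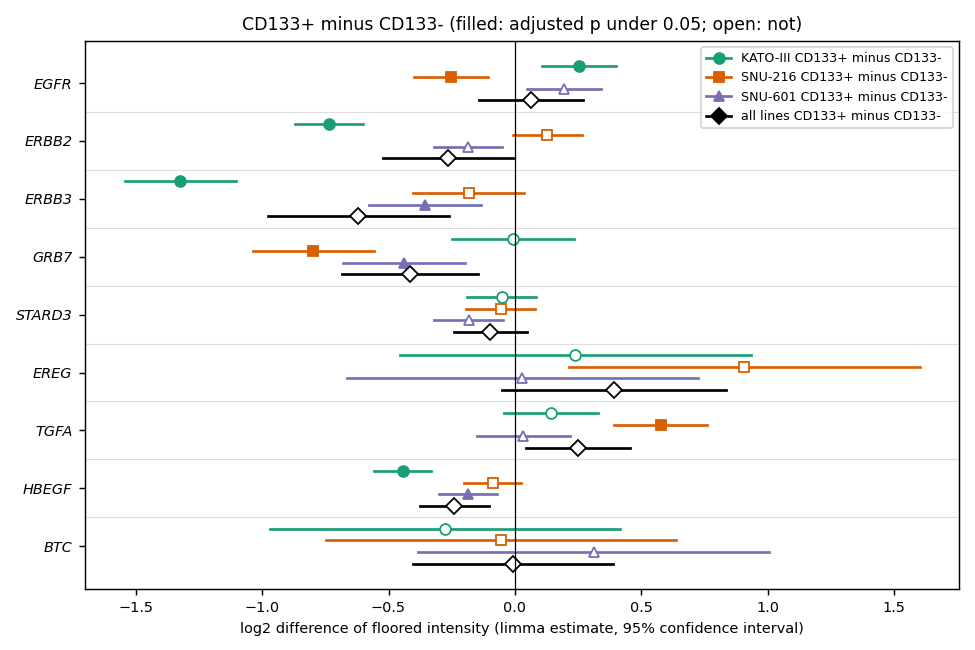
Log2 difference of floored intensity, CD133+ minus CD133-, for the 9 tested genes in each line and over all lines, with 95% confidence intervals of the limma fits; filled symbols have an adjusted p under 0.05. ERBB3 ranges from -1.32 in KATO-III to -0.18 in SNU-216, EGFR lies on opposite sides of 0 in KATO-III and SNU-216, and no symbol of the fit over all lines is filled.

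The difference between lines in the CD133 effect was tested directly by the interaction of line and fraction. It passed for 6 of the 9 genes, against 44.4% of all tested genes, and these were ERBB2 (adjusted p = 0.000183), ERBB3 (0.000398), EGFR (0.00332), GRB7 (0.00705), HBEGF (0.00744) and TGFA (0.00916). Each of the 6 passed in all 12 fits without 1 array. ERBB2 and ERBB3 had their largest difference in KATO-III, and GRB7 and TGFA in SNU-216. STARD3 (adjusted p = 0.382), EREG (0.255) and BTC (0.535) did not pass. EREG passed without the first KATO-III CD133+ array, with the offset (0.00361) and with a floor of 100 (0.000105), and BTC with a floor of 100 (0.0118). That floor put all EREG values of KATO-III and SNU-601 and all BTC values of SNU-216 and SNU-601 at the same level. These populations then added no spread to the fit.

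Over all lines together, with line as a block, none of the 9 genes passed limma's test at an adjusted p of 0.05, against 4.73% of all tested genes (2.62% higher, 2.11% lower), and 5 had an unadjusted p under 0.05, as had 24.5% of all tested genes. ERBB3, HBEGF and GRB7 were closest, at -0.62 ± 0.16 (adjusted p = 0.0537), -0.24 ± 0.06 (adjusted p = 0.0523) and -0.42 ± 0.12 (adjusted p = 0.0727). ERBB3 and HBEGF had negative values in all 3 lines, and so had GRB7, whose KATO-III value of -0.01 became 0.00516 and 0.0348 when arrays were quantile-normalized again or centered on their medians. With a floor of 100, ERBB3 and HBEGF passed (adjusted p = 0.0462 and 0.0427), and among genes above the floor on all 12 arrays GRB7 passed with them (0.0334, 0.0418 and 0.0488 for ERBB3, HBEGF and GRB7). No gene of the set was called when the arrays of a population were averaged first or taken as a random block, settings that called 0.0% and 0.00496% of all tested genes. The signal-to-noise ratio (mean of the 6 CD133+ arrays minus mean of the other 6, over the summed SDs) ran from -0.66 for ERBB3 and -0.46 for GRB7 to 0.22 for EREG. Thus 0 of the 10 genes passed 1 or -1, the thresholds of the study's methods, which 193 and 139 of the 34595 genes passed.

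Other genes of the pathway were followed through fixed lists, also chosen with earlier results of these data known. Of 6 further ligands, 3 were tested. NRG1, a ligand of ERBB3, read 175 to 219 on the 4 SNU-216 arrays and was at the floor on all arrays of the other lines, which makes SNU-216 at least 5.87-fold higher (adjusted p = 2.85e-09 against KATO-III and 2.88e-09 against SNU-601). NRG4, a ligand of ERBB4, was lower in CD133+ cells of KATO-III (-1.01) and at least 2.17-fold higher in those of SNU-216, whose CD133- arrays were at the floor, with readings no higher than 102 on any array. All SNU-601 arrays were at the floor for NRG4, at least 2.07-fold below KATO-III and 1.47-fold below SNU-216 over both fractions. The log2 difference of SNU-216 minus KATO-III was -0.49 over both fractions, made of opposite directions. In CD133+ cells NRG4 averaged 71.2 in SNU-216 and 48.6 in KATO-III. In CD133- cells it averaged 96.1 in KATO-III and was at the floor in SNU-216. EGF did not pass in any comparison. Of 7 genes of ligand release, 6 were tested. ADAM19, a metalloprotease, was above the floor only in SNU-216, at least 10.9-fold over both other lines, and was 3.08-fold higher there in CD133+ cells (adjusted p = 3.25e-05). ADAM10 and ADAM17 were also higher in SNU-216 CD133+ cells (0.49 and 0.39), while RHBDF1 and RHBDF2, which carry ADAM17 to the surface, were lower in KATO-III CD133+ cells (-1.11 and -0.66) and higher in those of SNU-601 (0.35 and 0.32). ADAM9, another metalloprotease, had the largest of the 3 differences called for ligand release in SNU-601 CD133+ cells (0.54, adjusted p = 0.0104). Between fractions, 2, 3 and 3 of the 6 were called in KATO-III, SNU-216 and SNU-601, against 39.3%, 28.6% and 16.4% of all tested genes. Between lines, SNU-216 exceeded KATO-III in ADAM10 (0.66) and, over both fractions, in RHBDF1 (0.49). The RHBDF1 difference lay in CD133+ cells, at 6586 and 7204 in SNU-216 and 3414 and 3450 in KATO-III. In CD133- cells RHBDF1 read 7487 and 7139 in SNU-216 and 7360 and 7487 in KATO-III. SNU-216 was below SNU-601 in ADAM9 (-1.16) and ADAM17 (-0.85), while SNU-601 exceeded KATO-III in ADAM9 (1.06), RHBDF1 (0.93) and RHBDF2 (0.76).

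The list of adaptors and proximal signaling had 25 of 27 genes tested. Its counts stand beside the shares of all tested genes called between fractions, which were 39.3% in KATO-III (18.7% higher, 20.6% lower), 28.6% in SNU-216 and 16.4% in SNU-601. In KATO-III, 7 were higher and 6 lower in CD133+ cells (median 0.08), with EPS8, a receptor substrate, at 1.72, and SOS2 and SOS1, exchange factors of RAS, at -1.12 and -1.01. In SNU-216, 4 were higher and 5 lower (median 0), SOS1 at 0.68, HRAS at -0.62 and PIK3R2, a PI3-kinase subunit, at -0.59. In SNU-601, 2 were higher and 2 lower (median -0.01), among them SHC3 at 0.89, with 1 of 2 CD133- arrays at the floor, PLCG1 at 0.59 and NCK1 at -0.29. Between lines, 20, 18 and 19 differed for SNU-216 minus KATO-III, SNU-601 minus KATO-III and SNU-216 minus SNU-601, against 62%, 58.6% and 56.5% of all tested genes. GRB10, a relative of GRB7, was 7.35-fold lower in SNU-216 than in KATO-III and 10.6-fold lower than in SNU-601. PIK3R1, a PI3-kinase subunit, was lower (-2.03) and EPS15, an endocytic adaptor, higher (1.48) in SNU-216 than in KATO-III, and against SNU-601 HRAS was higher (3.10) and the adaptor GAB2 lower (-2.38). For SNU-601 minus KATO-III, HRAS differed by -1.79, PLCG1 by -1.28 and EPS15 by 1.24.

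Genes that restrain receptors or turn them over were tested in full, 16 of 16. In KATO-III CD133+ cells 7 were higher and 3 lower (median 0.21), 10 of 16 against the 39.3% of all tested genes. PTPN12, a phosphatase, was at 0.80, LRIG3 at 0.75, and RNF41, the ligase that degrades ERBB3, at -0.67. In SNU-216, 6 were higher and 3 lower (median 0.08), against 28.6% of all tested genes called. The largest were SOCS5 (1.26), the ubiquitin ligase CBLB (1.19) and CD2AP (0.72). In SNU-601, 1 was higher and 2 lower (median -0.07), against 16.4% of all tested genes called, with LRIG2 at -0.61, CBLB at -0.46 and LRIG1 at 0.17. LRIG1, which lowers receptor levels at the surface, was 3.36-fold lower in SNU-216 and 3.67-fold lower in SNU-601 than in KATO-III. PTPN1, a phosphatase, was higher (1.39) and SH3KBP1, a partner of CBL, lower (-1.10) in SNU-216 than in KATO-III. For SNU-216 minus SNU-601, CD2AP differed by -1.64, SH3KBP1 by -1.52 and the ligase STUB1 by 1.17, and for SNU-601 minus KATO-III the ligases CBLC and CBL differed by 1.69 and -1.04. Over all tested genes the median difference between fractions was 0 in each line. The 14 listed genes near ERBB2 had 10 tested. In KATO-III CD133+ cells 1 was higher and 3 lower (GSDMB -1.79, PGAP3 -1.04, ORMDL3 -0.95), against 39.3% of all tested genes called. In those of SNU-216, 3 were higher (ORMDL3 0.55, GSDMB 0.50, CRKRS 0.45), against 28.6%. In those of SNU-601, 3 were lower (PPP1R1B -0.91, CRKRS -0.59, GSDMB -0.44), against 16.4%. Over all lines together, limma called none of the 60 tested genes of these 5 lists, against 4.73% of all tested genes. An unadjusted p under 0.05 was found for 14 of the 60 and for 24.5% of all tested genes.

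**Figure D5:**
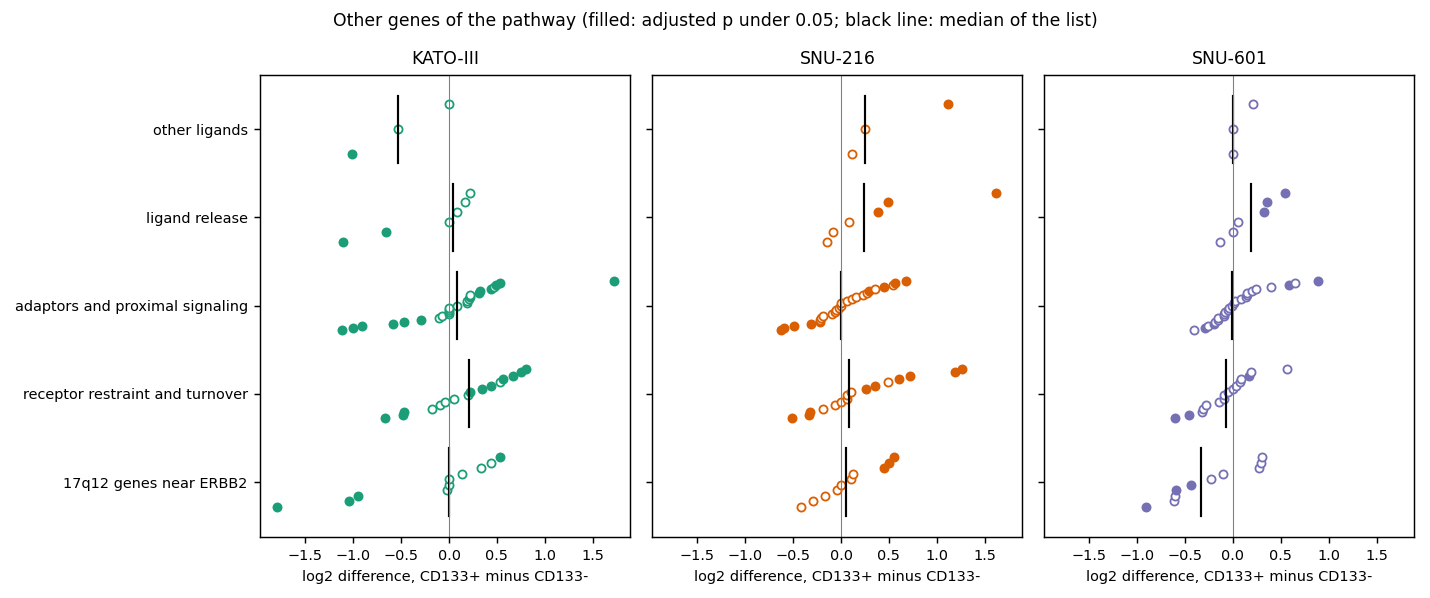
Log2 difference of floored intensity, CD133+ minus CD133-, for each tested gene of 5 lists (rows) in each line (panels); filled points have an adjusted p under 0.05 and the black line is the median of the list. In each line, filled points of adaptors and of restraint and turnover lie on both sides of 0, and medians range from -0.54 (other ligands, KATO-III) to 0.25 (other ligands, SNU-216).

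Likeness was measured by Pearson's r of log2 intensities over the 12 arrays, which share lines and fractions, so that r mostly follows the lines, and it is given as a description. Among members, EGFR was most like STARD3 (r = 0.96) and EREG (0.96), and most unlike TGFA (-0.91), while ERBB2 followed EREG (0.90) and STARD3 (0.89). ERBB3 correlated with ERBB2 at 0.14 and with EGFR at -0.25. Among all tested genes, those closest were IGFBP5 to EGFR and TFPI to ERBB2 (both 0.99 or above), INO80D to ERBB3 (0.98), RNU105A to GRB7 (0.97), BCAR3 to STARD3, EPN2 to TGFA and FER1L3 to HBEGF (each 0.99 or above).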

How the data were processed

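The authors hybridized RNA of sorted cells to Human HT-12 v3 BeadChips, processed the scans with BeadStudio (per the labels) and quantile-normalized them. The deposited table holds linear intensity values with background subtracted (32.1% are at or below 0), 1 row per gene symbol; the background estimate, the way probes of a gene were combined and array positions are not given in the sources used here. Of 34688 rows, 93 are empty, which left 34595 genes. Values below 32.7, the size of the 1st percentile, were set to it before log2, and the 20147 genes above it on at least 2 arrays were tested.

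limma 3.58.1 (R 4.3.3, eBayes with trend) was fitted to all 12 arrays with a mean per population (6 residual degrees of freedom) for line differences, CD133 effects and the interaction, and with line as a block (8 degrees of freedom) over all lines. These residuals treat the 2 arrays of a population as independent. P-values are two-sided, adjusted by Benjamini-Hochberg over all tested genes, with a threshold of 0.05. Code was tested on simulated data. Replicate numbers do not pair arrays (correlations of deviations -0.0116 to 0.0276). The number of arrays limits precision. Named genes are the members, and from each list the 3 largest differences among genes called in a comparison (PPP1R1B in SNU-216 by its readings only), with marker genes, EGF, the gene most like each of 7 members and those marked in the text beside them. The members and lists were chosen with earlier results of these data known. RefSeq promoter windows were found for 8 of the 10 genes. Alternatives covered floor, normalization, filter, trend, replicate block, averaged or left-out arrays, single fractions and a log2 signal-to-noise scale. Python 3.11.15, pandas 2.3.3, numpy 2.4.6 and matplotlib 3.10.9 were used for positions and plots.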

Additional observations from a re-analysis of the deposited data

Results flagged for a closer look

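The CD133 effect differed between lines, by the interaction of line and fraction, in 6 genes of the set. The adjusted p was 0.00332 for EGFR, 0.000183 for ERBB2, 0.000398 for ERBB3, 0.00705 for GRB7, 0.00916 for TGFA and 0.00744 for HBEGF. EGFR was higher in CD133+ cells of KATO-III (0.25) and lower in those of SNU-216 (-0.25). ERBB2 was at -0.74 in KATO-III, 0.13 in SNU-216 and -0.18 in SNU-601, and ERBB3 at -1.32, -0.18 and -0.36. GRB7 was at -0.01, -0.80 and -0.44, TGFA at 0.14, 0.58 and 0.03, and HBEGF at -0.44, -0.09 and -0.19, in the same order of lines. CDH1 (-0.70, 0.30 and -0.25) and CD68 (-1.36, -1.13 and -0.46) also differed between lines in their CD133 effect (adjusted p = 0.000194 and 0.00352). Of the 6 rows of epithelial markers, 2 passed the interaction, CDH1 among them. Between fractions, 2, 3 and 1 of these rows were called in KATO-III, SNU-216 and SNU-601, against 39.3%, 28.6% and 16.4% of all tested genes. The part of these markers was not tested. For the genes of the set, no single array stood out among the 6 CD133+ or among the 6 CD133- arrays. Each of these groups holds all 3 lines, so line differences set its range and an outlying array could be missed.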

How the results depend on the processing

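Over all alternatives, 1507 values of single genes kept the direction and side of the threshold reported. Of the others, 43 were weaker and 23 stronger (a call lost or gained) and 22 changed sign. For all lines together, the count of members called rose from 0 to 2 with a floor of 100, 1 with an offset of 100 and 3 among genes above the floor on all 12 arrays. In SNU-601 the count of CD133 calls fell from 3 to 0 with no filter on dim genes, to 2 with arrays centered on their medians (ERBB3 and HBEGF lost, EGFR gained) and to 1 without the mean-variance trend or with the replicate block, under which ERBB3 (adjusted p = 0.0522) and HBEGF (0.0512) were lost. The block changed no other call. With the arrays of a population averaged first and 1 CD133 effect shared by all lines, 1 call was left for SNU-601 minus KATO-III and 5 for SNU-216 minus SNU-601. Leaving out 1 array gave 0 to 3 calls in SNU-601, 3 to 5 in KATO-III, 2 to 4 in SNU-216, 0 over all lines, 6 to 7 for the interaction, 8 to 9 and 8 to 9 for SNU-216 against KATO-III and SNU-601, and 7 to 8 for SNU-601 minus KATO-III. The cause was not tested.

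BTC over all lines became 0.0668 (floor of 16), 0.00825 (quantile-normalized again) and 0.0196 (arrays centered), and -0.12 to 0.11 without 1 array. GRB7 in KATO-III became 0.00516 (quantile-normalized again) and 0.0348 (arrays centered), and -0.15 to 0.14 without 1 array. Without 1 array, EREG ranged from -0.30 to 0.77 in KATO-III, -0.15 to 0.21 in SNU-601 and -0.0246 to 0.51 for SNU-601 minus KATO-III, BTC in SNU-216 from -0.50 to 0.39 and TGFA in SNU-601 from -0.0184 to 0.0857. In CD133- arrays alone, ERBB3 was at -0.41 for SNU-216 minus KATO-III (adjusted p = 0.00324) and ERBB2 at -0.0266 for SNU-601 minus KATO-III. Signal near background limits EREG, BTC and NRG4, and AREG gave none.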
